A study of Rattus norvegicus with 18 samples.

Results

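The 9 genes described here mark subtypes of inhibitory interneurons in the cortex. They are *Pvalb*, *Sst*, *Vip*, *Npy*, *Cck*, *Calb1*, *Calb2*, *Reln* and *Lhx6*, taken by symbol from the 32623 genes listed for each pup. The set was chosen by its place in the biology and by measured values of these same pups, namely the call of *Pvalb* between PNO and IUO pups and the levels of the markers over the 3 groups. Their differences between groups are therefore a description. No p-value is given for them, and the count of markers called in a comparison stands only beside the share of all genes called there. All 9 were among the 15703 genes that passed the filter on low counts.

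RNA-seq was performed on the prefrontal cortex (PFC) of 18 Sprague Dawley rat pups at P14, with 6 pups in each of 3 groups. Dams of the saline (SAL) pups received the saline vehicle. Dams of the post-natal oxycodone (PNO) pups were gavaged with 15 mg/kg/day of oxycodone (oxy), an opioid pain reliever, from birth of the litter onward, so that these pups were exposed while nursing. Dams of the in utero oxycodone (IUO) pups started at 10 mg/kg/day before mating, reached 15 mg/kg/day, and continued through pregnancy and nursing, so that IUO pups were exposed both before and after birth. The labels do not name the litter of any pup, and pups of a group may share a dam, so the p-values below measure the spread between these pups and not between litters. The libraries held between 18381819 and 26084780 counts, with a median of 22726306.

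Cortical interneurons release GABA and shape the firing of their neighbors. Those born in the medial ganglionic eminence (MGE) require the transcription factor Lhx6 and become parvalbumin or somatostatin cells, whereas those of the caudal ganglionic eminence (CGE) become VIP, calretinin and many of the CCK and reelin cells. Parvalbumin cells include the fast-spiking basket cells, and parvalbumin itself appears late, as these cells mature in the weeks after birth. In bulk tissue, fewer cells of a type cannot be told apart from less RNA per cell.

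RefSeq promoter windows on the GRCr8 build, each running from 250 bases before to 50 bases after the start of the gene, were found for 6 of the 9 genes: *Pvalb*, *Sst*, *Vip*, *Npy*, *Reln* and *Lhx6*. They were searched on both strands for the cAMP response element (CRE) TGACGTCA, a palindrome known from the *Sst* gene, and for its half-site TGACG, which also lies inside the full element. *Sst* held the full element, with its first base at position 3 after the start, while 1.83% of 33469 RefSeq windows held one. All positions are counted from the start that RefSeq annotates, which was not checked against the reads. *Pvalb* held a half-site with its first base at position -241 from the start and *Vip* one at position -97, and 21.2% of all windows held a half-site. No match to these letters was found in the windows of *Npy*, *Reln* and *Lhx6*. The stretches below are those of the genes that held a match, with the matched letters in capitals. The part of these matches in the levels of the genes was not tested. They lie at chr7:111666290-111666539 on the minus strand for *Pvalb*, at chr11:90461536-90461565 on the plus strand for *Sst*, where the 30 bases span the start, and at chr1:44470230-44470479 on the plus strand for *Vip*.
Pvalb: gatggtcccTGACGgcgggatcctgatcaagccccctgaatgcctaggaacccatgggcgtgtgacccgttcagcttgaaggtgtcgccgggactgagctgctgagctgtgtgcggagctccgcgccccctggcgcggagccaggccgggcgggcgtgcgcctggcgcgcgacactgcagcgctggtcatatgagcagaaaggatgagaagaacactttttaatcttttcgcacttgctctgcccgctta
Sst: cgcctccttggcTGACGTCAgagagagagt
Vip: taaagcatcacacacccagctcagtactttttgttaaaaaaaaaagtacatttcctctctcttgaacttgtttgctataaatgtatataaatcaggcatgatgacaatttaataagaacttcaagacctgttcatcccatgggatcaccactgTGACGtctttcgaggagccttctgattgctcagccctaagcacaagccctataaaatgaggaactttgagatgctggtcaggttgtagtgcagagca

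The PFC identity of the tissue was checked first. All 10 markers of cortical excitatory neurons were detected, and their summed level was 1207 to 2844 CPM (each count set against its library total, with TMM size factors) over the 18 pups. Some libraries stood apart in markers of neighboring regions. In SAL replicate 6 the 5 olfactory bulb markers summed to 729 CPM, against 20.2 to 118 CPM in the other 17 pups. *Cdhr1*, a cadherin-like gene of bulb mitral and tufted cells, reached 659 CPM in that pup. The 6 hypothalamus or septum markers summed to 176 CPM in IUO replicate 6, 127 CPM in SAL replicate 1 and 109 CPM in PNO replicate 1, against 9.47 to 59.1 CPM in the other pups. The 6 choroid plexus markers reached 976 CPM in PNO replicate 1, 550 CPM in SAL replicate 3 and 539 CPM in PNO replicate 3, with no more than 260.1 CPM elsewhere. The striatal markers varied widely within each group, from 180 to 1609 CPM in SAL pups, 215 to 1356 CPM in PNO pups and 424 to 1953 CPM in IUO pups.

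The order of the markers by level was read from TPM, which accounts for gene length. *Sst*, which encodes the peptide somatostatin, stood first with a median of 523 TPM over the 18 pups, followed by *Cck* with 319, *Calb2* with 146 and *Calb1* with 101 TPM. *Pvalb* with a median of 35.9 TPM and *Vip* with 34.2 TPM could not be ordered over all pups, since *Pvalb* exceeded *Vip* in 9 of 18 pups. By group, the medians of *Pvalb* and *Vip* were 36.9 and 31.9 TPM in SAL pups and 73.5 and 40.5 TPM in PNO pups. In IUO pups they were 15.8 and 34.2 TPM, so the order differed between groups. *Reln* had a median of 15.1 TPM, *Lhx6* of 3.49 TPM and *Npy* of 1.89 TPM. *Lhx6* exceeded *Npy* in 11 of 18 pups, so this pair was not separated either, and *Calb2* exceeded *Calb1* in 13 of 18. The other steps of the order held in 15 to 18 of 18 pups. *Pvalb* ranged from 9.83 to 99.3 TPM over the 18 pups, the largest ratio of highest to lowest among the 8 markers above 0 in every pup.

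*Pvalb* (ENSRNOG00000006471) encodes parvalbumin, the calcium-binding protein of fast-spiking basket and chandelier cells. It ranged from 3.42 CPM over a median of 10.8 to 24.6 CPM in SAL pups, from 10.4 over 21.5 to 33.5 CPM in PNO pups, and from 2.60 over 4.71 to 5.93 CPM in IUO pups. Every IUO pup lay below every PNO pup, and the IUO pups lay close together while the SAL pups spread over both other groups. The means were 13.0 ± 8.68, 22.4 ± 8.69 and 4.43 ± 1.26 CPM (SD, n = 6 each). The estimated log2 fold change was -2.34 ± 0.41 (SE) between IUO and PNO pups, a 5.05-fold lower level, -1.55 ± 0.41 between IUO and SAL pups, and 0.78 ± 0.39 between PNO and SAL pups.

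The overlap of IUO with SAL pups came through SAL replicate 6 at 3.42 CPM, since SAL replicate 1 at 5.95 CPM lay just above the highest IUO pup at 5.93 CPM. Without SAL replicate 6 the log2 fold change between IUO and SAL pups was -1.76, and that between PNO and SAL pups was 0.58. *Pvalb* rested on 66 to 658 counts per pup.

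*Pvalb* was the 1 of the 9 markers called between IUO and PNO pups by edgeR's quasi-likelihood test (adjusted p under 0.05, 1.5-fold or more), where 7 of 15703 genes (0.0446%) were called. It was also the 1 marker whose groups did not overlap, against 1.66% of all genes. Since *Pvalb* was chosen on this contrast, nothing is read from these counts. None of the 9 markers was called between PNO and SAL pups, where 0% of genes were called by edgeR, 706 genes (4.50%) passed an unadjusted p of 0.05, and DESeq2 called 1 gene and limma-voom 0. None was called by edgeR between IUO and SAL pups either, where 0% of genes were called. There 1081 genes (6.88%) passed an unadjusted p of 0.05 by edgeR, DESeq2 called 22 genes and limma-voom 17. Of the 8 alternative settings other than leaving a pup out, 1 called *Pvalb* between IUO and SAL pups. No marker had separate groups in these comparisons, in which 0.108% and 0.745% of genes did. With any PNO pup other than replicate 5 left out, or any IUO pup, *Pvalb* was not called between IUO and PNO pups, at log2 fold changes between -2.44 and -2.19.

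**Figure D1:**
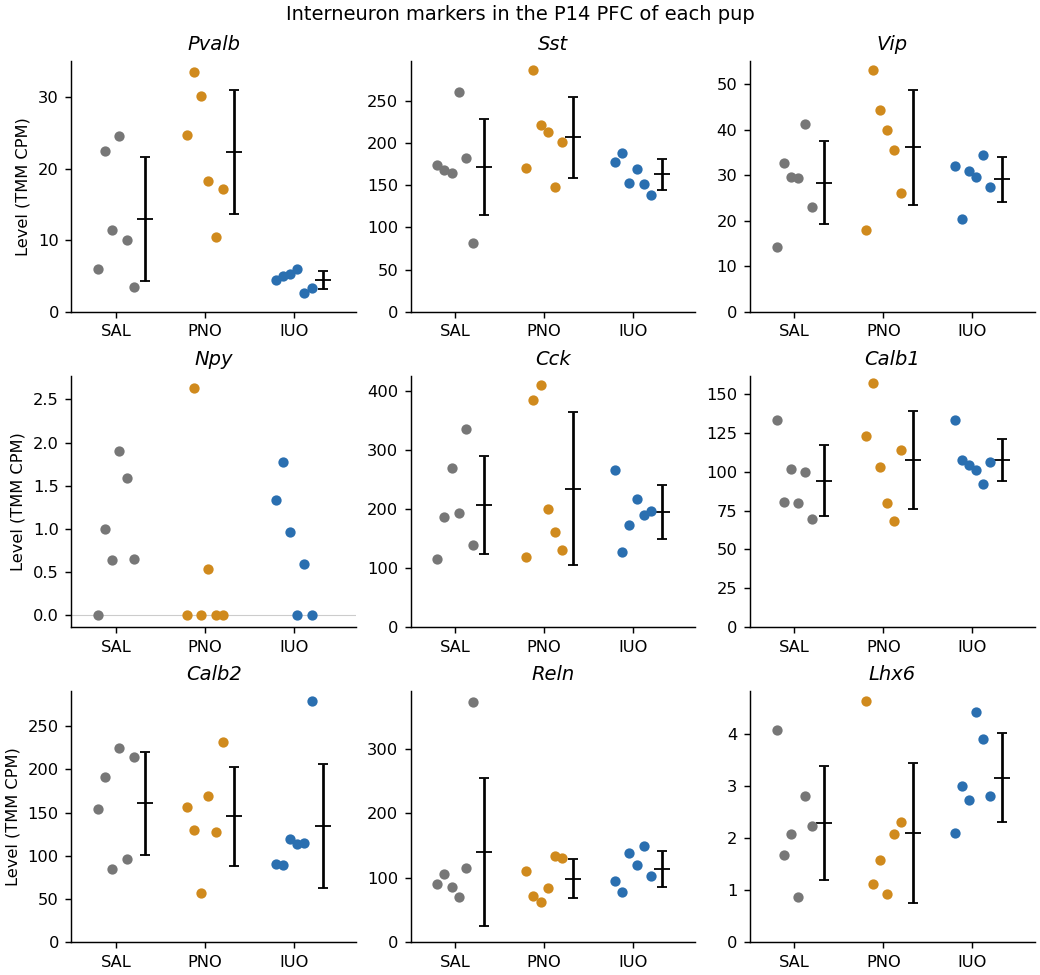
Level of each of the 9 interneuron markers in TMM-scaled CPM, with 1 point per pup in replicate order within each group, and the mean ± SD of 6 pups as a bar beside the points. *Npy* has no bar because it is listed at 0 in 7 pups. The 6 IUO pups lie between 2.60 and 5.93 CPM for *Pvalb*, below all PNO pups, while the groups of the other 8 markers overlap.

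*Sst* and *Lhx6* mark the MGE cells together with *Pvalb*. *Sst* (ENSRNOG00000001837) ranged from 81.1 CPM over a median of 171 to 260 CPM in SAL pups, from 147 over 207 to 287 CPM in PNO pups and from 139 over 161 to 188 CPM in IUO pups. The lowest value belonged to SAL replicate 6, and the 3 groups overlapped. The log2 fold change was -0.34 ± 0.20 (SE) between IUO and PNO pups, -0.07 ± 0.20 between IUO and SAL pups and 0.27 ± 0.20 between PNO and SAL pups. Without SAL replicate 6 the latter values were -0.22 and 0.12.

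*Lhx6* (ENSRNOG00000005996) ranged from 0.858 CPM over a median of 2.15 to 4.08 CPM in SAL pups, from 0.929 over 1.82 to 4.62 CPM in PNO pups and from 2.09 over 2.90 to 4.42 CPM in IUO pups. Replicate 1 was the highest pup of both SAL and PNO, at 4.08 and 4.62 CPM, and the groups overlapped. Both of these pups also had high hypothalamus or septum markers, whose part in the *Lhx6* values was not tested. The log2 fold change was 0.58 ± 0.37 (SE) between IUO and PNO pups, opposite in sign to that of *Pvalb*, and 0.47 ± 0.37 between IUO and SAL pups. With PNO replicate 1 left out the former was 0.98, and with SAL replicate 1 left out the latter was 0.71. It rested on 19 to 123 counts per pup, and limma-voom with sample quality weights gave 1.13 between IUO and PNO pups. Of the 8 alternative settings other than leaving a pup out, 1 called *Lhx6* in that comparison. Of all 15703 genes, 5 were called there with a replicate block and 703 by limma-voom, the lowest and highest numbers of those settings.

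*Vip*, *Cck* and *Calb2* mark mainly CGE cells. *Vip* (ENSRNOG00000018808), which encodes the vasoactive intestinal peptide of cells that inhibit other interneurons, ranged from 14.2 CPM over a median of 29.5 to 41.2 CPM in SAL pups, from 18.0 over 37.7 to 53.1 CPM in PNO pups and from 20.3 over 30.2 to 34.4 CPM in IUO pups. The groups overlapped, with the widest spread in PNO pups. The log2 fold change was -0.31 ± 0.24 (SE) between IUO and PNO pups, 0.04 ± 0.24 between IUO and SAL pups and 0.35 ± 0.24 between PNO and SAL pups.

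*Cck* (ENSRNOG00000019321) encodes cholecystokinin, which excitatory neurons of the cortex make as well. It ranged from 115 CPM over a median of 190 to 336 CPM in SAL pups, from 118 over 180 to 410 CPM in PNO pups and from 126 over 193 to 266 CPM in IUO pups. PNO replicates 2 and 3, at 384 and 410 CPM, lay above all other pups, and the groups overlapped. The log2 fold change was -0.27 ± 0.32 (SE) between IUO and PNO pups, -0.09 ± 0.32 between IUO and SAL pups and 0.18 ± 0.32 between PNO and SAL pups. With PNO replicate 3 left out, the first was -0.03 and the last -0.06.

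*Calb2* (ENSRNOG00000016977) encodes the calcium-binding protein calretinin. It ranged from 84.3 CPM over a median of 173 to 224 CPM in SAL pups, from 57.3 over 143 to 232 CPM in PNO pups and from 89.6 over 114 to 280 CPM in IUO pups. IUO replicate 6 at 280 CPM was the highest of all pups, while the other 5 IUO pups lay at or below 120 CPM. The log2 fold change was -0.11 ± 0.33 (SE) between IUO and PNO pups, -0.26 ± 0.33 between IUO and SAL pups and -0.14 ± 0.33 between PNO and SAL pups. Without IUO replicate 6 the value was -0.46 between IUO and PNO pups and -0.60 between IUO and SAL pups. That pup also had the highest sum of thalamus markers, 313 CPM, and the correlation of *Calb2* with that sum, both as log2 deviations from the group mean, was 0.81 over 18 pups and 0.73 without IUO replicate 6, while the part of that tissue in the *Calb2* values was not tested.

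*Calb1* (ENSRNOG00000007456) encodes calbindin, found in many somatostatin cells and in upper-layer excitatory neurons. It ranged from 69.9 CPM over a median of 90.1 to 133 CPM in SAL pups, from 68.4 over 108 to 157 CPM in PNO pups and from 92.0 over 106 to 133 CPM in IUO pups. The groups overlapped and differed the least of the 9 markers between IUO and PNO pups, with a log2 fold change of 0.00 ± 0.18 (SE). The values were 0.19 ± 0.18 for both IUO and PNO pups against SAL pups.

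*Reln* (ENSRNOG00000021441) encodes reelin, a secreted protein made by Cajal-Retzius cells during development and by interneurons later. It ranged from 69.7 CPM over a median of 98.0 to 373 CPM in SAL pups, from 62.5 over 96.7 to 133 CPM in PNO pups and from 77.2 over 111 to 149 CPM in IUO pups. The value of 373 CPM was SAL replicate 6, the pup with the high olfactory bulb markers, and the next SAL pup had 115 CPM. With all pups the log2 fold change was -0.51 ± 0.35 (SE) between PNO and SAL pups and -0.30 ± 0.34 between IUO and SAL pups, and without SAL replicate 6 both turned positive, to 0.07 and 0.28. Between IUO and PNO pups it was 0.21 ± 0.35.

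*Npy* (ENSRNOG00000009768) encodes neuropeptide Y, a peptide of somatostatin and neurogliaform cells. It was listed at 0 in SAL replicate 1, in PNO replicates 1, 3, 5 and 6, and in IUO replicates 4 and 6. The other SAL pups had 0.636 to 1.90 CPM, the other PNO pups 2.64 and 0.538 CPM, and the other IUO pups 0.591 to 1.77 CPM. No more than 50.4 expected counts were listed in any pup, and the number was not whole in 11 pups, where reads shared with other genes had been divided by estimation. Whether the values, the zeros included, follow the expression of *Npy* or the way in which reads were divided could not be settled from the files, so its level and its place in the order by TPM are given only as listed. Groups overlapped, and no direction could be read from log2 fold changes with an SE of 1.08 to 1.14.

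**Figure D2:**
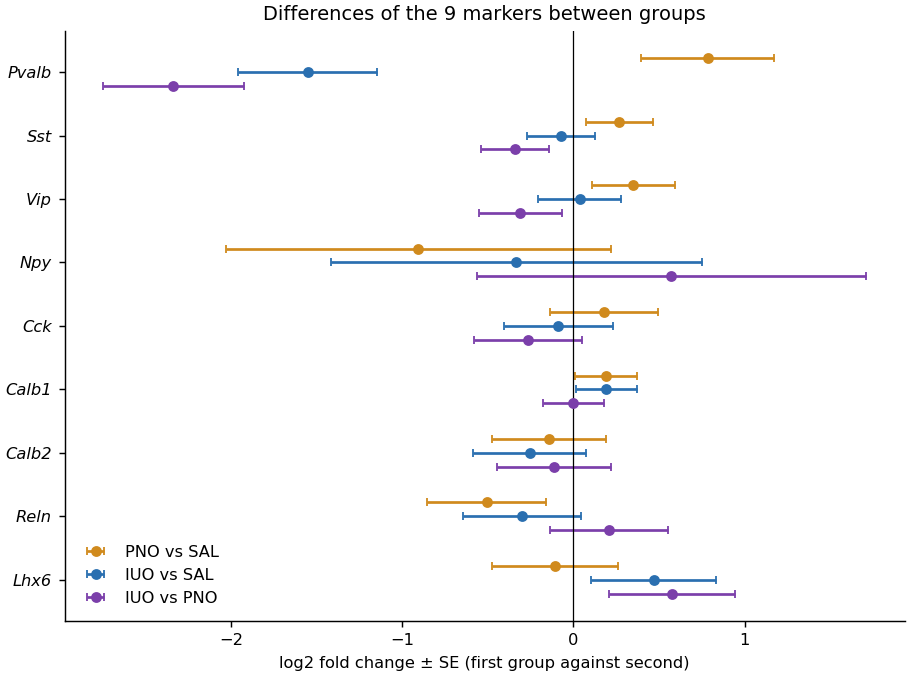
Log2 fold change of each marker in the 3 comparisons, with bars for 1 SE, where a value below 0 means a lower level in the first group named. *Pvalb* lies at -2.34 between IUO and PNO pups, and the other 8 markers lie between -0.34 and 0.58 in that comparison.

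The markers were next compared with each other from pup to pup. For each of the 36 pairs, the deviations of log2 CPM from the group means were correlated over the 18 pups, and p-values came from 100000 permutations of pups within groups, adjusted over the pairs. This leaves out the differences between groups. Of the 36 pairs, 4 had an adjusted p under 0.05, and r ranged from -0.87 to 0.86 over all of them.

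*Vip* and *Cck* varied together (r = 0.86, permutation p = 7e-05, adjusted p = 0.00252). By rank it passed as well (rho = 0.81, permutation p = 0.00047, adjusted p = 0.00846). The correlation was 0.88 in SAL pups, 0.87 in PNO pups and 0.74 in IUO pups, and 0.82 without the 2 pups farthest from the median of *Vip*. It kept an adjusted p under 0.05 with each pup left out in turn. Both markers also moved with the summed excitatory neuron markers, with r of 0.77 for *Vip* and 0.66 for *Cck*. They moved against the summed Cajal-Retzius markers, with -0.72 and -0.79, and against the hypothalamus or septum markers, with -0.78 and -0.56. *Cacna2d2* made up most of the Cajal-Retzius sum, with group medians of 68.6 to 79.0 CPM against 81.4 to 87.4 CPM for the sum. The part of these cells and regions in the pair was not tested.

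*Sst* and *Reln* moved in opposite directions (r = -0.87, permutation p = 0.00052, adjusted p = 0.00936), also by rank (rho = -0.81, permutation p = 0.00036, adjusted p = 0.00846). The correlation was -0.95 in SAL, -0.76 in PNO and -0.61 in IUO pups, and -0.73 without the 2 pups farthest from the median of *Sst*. Without SAL replicate 6 it was -0.69 and the permutation test no longer passed (adjusted p = 0.0797).

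*Pvalb* and *Sst*, the markers of the 2 main MGE classes, varied together (r = 0.77, permutation p = 0.00138, adjusted p = 0.0166). By rank the pair did not pass (rho = 0.58, permutation p = 0.0219, adjusted p = 0.157). The correlation was 0.80 in SAL, 0.78 in PNO and 0.57 in IUO pups, and 0.77 without the 2 pups farthest from the median of *Pvalb*. Without SAL replicate 6 it was 0.62, which did not pass the permutation test (adjusted p = 0.132), and the pair also failed without SAL replicate 4 or PNO replicate 2 or 5.

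*Pvalb* and *Reln* moved in opposite directions (r = -0.70, permutation p = 0.0052, adjusted p = 0.0468). By rank this pair did not pass either (rho = -0.58, permutation p = 0.0214, adjusted p = 0.157). It was -0.74 in SAL, -0.79 in PNO and -0.30 in IUO pups, and -0.68 without the 2 pups farthest from the median of *Pvalb*. Without SAL replicate 6 it was -0.48, which did not pass the permutation test (adjusted p = 0.184). The pair failed in 10 of the 18 analyses that left out 1 pup, which were those without SAL replicate 2, 3, 4 or 6, PNO replicate 2, 3, 5 or 6, or IUO replicate 1 or 5. *Lhx6*, the transcription factor upstream of the MGE markers in development, had an r of -0.41 with *Pvalb* and -0.43 with *Sst*, neither past the test (permutation test, adjusted p = 0.294 for each).

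**Figure D3:**
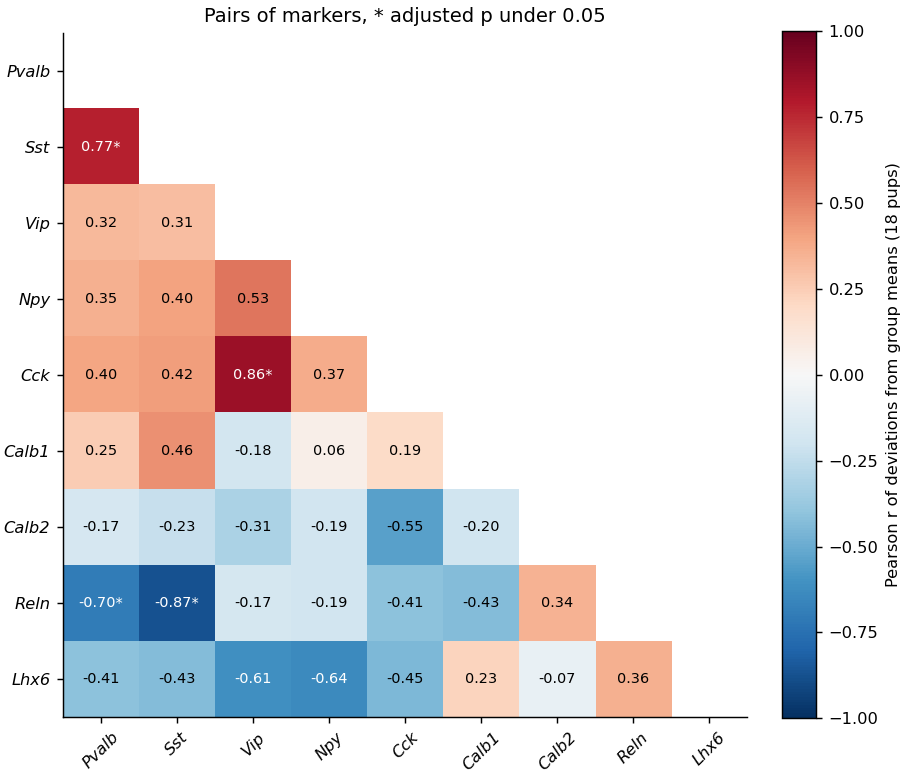
Pearson r between the deviations of each pair of markers from their group means in log2 CPM over 18 pups, as a grid from blue (negative) to red (positive), with a star where the permutation p adjusted over 36 pairs is under 0.05. The 4 starred pairs are *Vip* with *Cck*, *Pvalb* with *Sst*, *Sst* with *Reln* and *Pvalb* with *Reln*.

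The genes most like each marker were taken from all genes tested, by the highest r of deviations from group means over 18 pups. For *Pvalb* they were *Dcst2* (r = 0.94), *Sarnp* (r = 0.90) and AABR07031184.1 (r = 0.87). For *Sst* they were *Morf4l2* (r = 0.96), *Tceal5* (r = 0.92) and *Sirt3* (r = 0.92), and for *Vip* *Rtn4r* (r = 0.97), *Ggt7* and *Olfm1* (r = 0.95 each). *Cck* was most like *Arpc4* (r = 0.97), *Prrt1* and LOC294154 (r = 0.96 each). *Calb2* was most like *Ntng1* (r = 0.94), *Nell1* (r = 0.91) and *Zfp423* (r = 0.90), and *Calb1* most like *Map2k1* (r = 0.89), *Anxa3* (r = 0.88) and *Prnp* (r = 0.85). *Reln* was most like *Myo16*, *Ttc28* (r = 0.94 each) and *Arfgef1* (r = 0.93). *Lhx6* was most like *Wdr45b* (r = 0.89), *Erich3* and *Tcaf1* (r = 0.88 each), and *Npy* most like *Zmynd8* (r = 0.81), AABR07030375.1 (r = 0.79) and *Poln* (r = 0.77). None of the other 8 markers and none of the other interneuron genes was among these.

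To set the markers beside the rest of the interneuron program, 62 other genes in 4 lists were followed, of which 60 were in the files and 59 were tested. They cover the shared GABAergic genes, the MGE lineage with its parvalbumin and somatostatin cells, the CGE lineage, and the receptors and transducers of the marker peptides and reelin. No gene of the lists was called by edgeR in any comparison. DESeq2 called 2 of the 59 between IUO and PNO pups, *Kcnc1* and *Syt2*, both lower in IUO pups. There limma-voom called 5, *Syt2* lower and *Dlx1*, *Dlx2*, *Sp8* and *Adarb2* higher. Of all 15703 genes, DESeq2 called 172 and limma-voom 703 between these groups. Neither tool called any list gene in the other comparisons. Between IUO and PNO pups, 15 of the 59 genes (25.4%) passed an unadjusted p of 0.05, 5 of them higher and 10 lower in IUO pups, against 15.3% of all genes tested. This balance depended on the fit, since 18 were higher and 9 lower by limma-voom, and 8 higher and 6 lower with a replicate block. Between PNO and SAL pups it was 5 of 59 (8.47%) against 4.50%, and between IUO and SAL pups 2 of 59 (3.39%) against 6.88%. The median log2 fold change of the 59 genes was 0.07 between IUO and PNO pups, against 0.00 for all genes. The comparisons share groups, so their counts are not independent of each other.

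In the MGE list, 5 of 20 genes tested (25.0%, against 15.3% of all genes) passed an unadjusted p of 0.05 between IUO and PNO pups, and all 5 were lower in IUO pups. Most of the list lay on the other side, with 12 of the 20 genes above 0 and 8 below and a median log2 fold change of 0.15. *Kcnc1* and *Kcnc2* encode the Kv3 potassium channels that let fast-spiking cells repolarize quickly. *Kcnc1* ranged from 26.7 over a median of 34.7 to 55.3 CPM in SAL pups, from 32.9 over 40.5 to 49.3 CPM in PNO pups and from 21.3 over 27.8 to 31.0 CPM in IUO pups. Its log2 fold change was -0.61 ± 0.16 (SE) between IUO and PNO pups (edgeR, adjusted p = 0.11), with no overlap of these groups, and -0.50 ± 0.16 between IUO and SAL pups (edgeR, adjusted p = 0.498).

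*Kcnc2* ranged from 24.3 over 31.9 to 35.0 CPM in SAL pups, from 30.8 over 36.2 to 49.8 CPM in PNO pups and from 22.7 over 28.0 to 30.3 CPM in IUO pups. All IUO pups again lay below all PNO pups, with a log2 fold change of -0.47 ± 0.11 (SE; edgeR, adjusted p = 0.0991). Between PNO and SAL pups it was 0.30 ± 0.11 (edgeR, adjusted p = 0.912), the 1 list gene higher in PNO pups at an unadjusted p under 0.05, which it did not pass without PNO replicate 1 (0.20, edgeR, unadjusted p = 0.0608). *Syt2*, a calcium sensor of fast release at basket cell terminals, had -1.27 ± 0.36 between IUO and PNO pups (adjusted p = 0.127), with 5 of 6 IUO pups below all PNO pups. *Kcns3*, a channel subunit found in parvalbumin cells, had -0.71 ± 0.23 (adjusted p = 0.166), and *Cox6a2*, a subunit of the respiratory chain, had -1.26 ± 0.55 (adjusted p = 0.288). Without PNO replicate 3 or IUO replicate 6 *Cox6a2* was at -0.97 and -1.09 and did not pass an unadjusted p of 0.05. Over all 26 alternative settings *Cox6a2* missed that limit in 8.

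Of the 8 shared GABAergic genes, 7 had a log2 fold change above 0 between IUO and PNO pups, with a median of 0.55. All 8 lay below 0 between PNO and SAL pups, with a median of -0.37, and between IUO and SAL pups 5 lay above and 3 below 0, with a median of 0.06. These counts against SAL pups rested on single pups: without SAL replicate 6 they were 6 of 8 below 0 for PNO and 7 of 8 above 0 for IUO pups, with medians of -0.28 and 0.26, and without SAL replicate 1 there were 5 of 8 below 0 for PNO pups, with a median of -0.15. Between IUO and PNO pups 7 of 8 lay above 0 with each of the 6 pups that stood apart left out in turn. *Gad1* and *Gad2*, which make GABA, and *Slc32a1*, which loads it into vesicles, had log2 fold changes of -0.14 ± 0.19, 0.23 ± 0.22 and 0.26 ± 0.22 between IUO and PNO pups (edgeR, adjusted p = 0.752, 0.635 and 0.589). In that list 2 genes (25.0%, against 15.3% of all genes) passed an unadjusted p of 0.05 between IUO and PNO pups, both higher in IUO pups, and they were the transcription factors *Dlx1* and *Dlx2*, which specify young GABAergic neurons.

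*Dlx1* ranged from 24.1 over a median of 44.9 to 149 CPM in SAL pups, from 19.3 over 29.6 to 41.9 CPM in PNO pups and from 51.1 over 55.1 to 69.5 CPM in IUO pups. *Dlx2* ranged from 1.63 over 5.28 to 19.0 CPM, from 1.35 over 2.20 to 4.29 CPM and from 5.47 over 6.11 to 7.13 CPM in the same order. All IUO pups lay above all PNO pups for both genes, and the highest SAL pup was replicate 6. The log2 fold changes between IUO and PNO pups were 0.95 ± 0.35 for *Dlx1* and 1.36 ± 0.46 for *Dlx2* (SE; edgeR, adjusted p = 0.211 and 0.177).

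*Sp8*, a transcription factor of CGE cells, also had no overlap, with 0.264 over a median of 0.788 to 1.52 CPM in PNO pups and 1.77 over 2.96 to 4.25 CPM in IUO pups. Its log2 fold change was 1.89 ± 0.67 (SE; edgeR, adjusted p = 0.203). In the SAL pups *Sp8* spread from 0.502 to 15.8 CPM, with replicate 6 the highest. In all, 5 of the 59 list genes (8.47%) had separate IUO and PNO groups, *Kcnc1* and *Kcnc2* with IUO pups below and *Dlx1*, *Dlx2* and *Sp8* with IUO pups above, against the 1.66% of all genes.

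*Dlx1*, *Dlx2* and *Sp8* are also used by interneurons of the olfactory bulb, and the *Dlx* genes by neurons of the striatum. The olfactory bulb markers summed to 36.3 to 62.0 CPM in IUO pups, 20.2 to 50.1 CPM in PNO pups and 21.5 to 729 CPM in SAL pups, and all 5 were above 0 in some pup of each group. By the medians, 3 of the 5 were above PNO pups in IUO pups and 2 below. The striatal markers had a median sum of 691 CPM in IUO pups, 313 CPM in PNO pups and 301 CPM in SAL pups, with overlap, and 10 of the 11 had a higher median in IUO than in PNO pups. Of the 68 marker genes of other cell types and regions, 3 had separate IUO and PNO groups, and they are named here after their values were seen. *Cdhr1* of the olfactory bulb list was higher in IUO pups, at 32.8 to 57.2 CPM against 14.4 to 24.8 CPM, and so was *Zic1* of the hypothalamus or septum list, at 16.1 to 69.7 CPM against 6.80 to 15.9 CPM, while *Tmem119* of the microglia list was lower. The other 4 olfactory bulb markers overlapped, with *Doc2g* at a median of 1.65 CPM in IUO and 2.34 CPM in PNO pups and *Th* at 2.83 and 3.23 CPM. In the list of *Zic1*, 4 of the 6 markers had a higher median in IUO pups and 2 a lower one. The part of these regions in the *Dlx1*, *Dlx2* and *Sp8* values was not tested. Between PNO and SAL pups these 3 genes were lower in PNO pups at an unadjusted p under 0.05 and adjusted p of 0.912 by edgeR, with log2 fold changes of -1.07, -1.51 and -2.45. Without SAL replicate 6 the values were -0.59, -0.89 and -1.42, and all 3 still passed an unadjusted p of 0.05. *Vipr2*, a VIP receptor, was the other gene lower in PNO than in SAL pups, at -0.46 ± 0.22. It went to -0.16 without SAL replicate 6 and did not pass, nor did it without PNO replicate 1 or 3 (-0.44 and -0.43). Over all 26 alternative settings *Vipr2* missed an unadjusted p of 0.05 in 15.

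Of the CGE list, 5 of 16 genes (31.2%, against 15.3% of all genes) passed an unadjusted p of 0.05 between IUO and PNO pups, and 8 of the 16 lay above 0. Besides *Sp8*, *Cnr1*, the cannabinoid receptor of CCK cells and many excitatory neurons, was higher in IUO pups, with a log2 fold change of 0.29 ± 0.13 (edgeR, adjusted p = 0.314). *Nr2f2*, a CGE transcription factor, had -1.07 ± 0.42, *Kit*, a receptor tyrosine kinase, -0.56 ± 0.25, and *Crh*, the stress peptide made by some VIP cells, -0.55 ± 0.24 (edgeR, adjusted p = 0.239, 0.299 and 0.291). An unadjusted p of 0.05 was not passed by *Nr2f2* without PNO replicate 1 (-0.77) and by *Crh* without PNO replicate 3 (-0.39). Nor was it by *Kit* without IUO replicate 6 (-0.56) and by *Cnr1* without SAL replicate 1 (0.29). These are only the losses with a pup that stood apart left out. Over all 26 alternative settings that limit was missed in 2 for *Nr2f2*, 7 for *Crh*, 7 for *Kit* and 8 for *Cnr1*.

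Of the 15 receptors and transducers tested, 3 passed an unadjusted p of 0.05 between IUO and PNO pups, a share near the 15.3% of all genes. *Sstr3*, a somatostatin receptor, had a log2 fold change of -0.41 ± 0.18, *Npy5r*, a receptor of neuropeptide Y, -0.38 ± 0.17, and *Lrp8*, a reelin receptor, 0.20 ± 0.08 (edgeR, adjusted p = 0.303, 0.292 and 0.221). Without IUO replicate 6 neither *Sstr3* (-0.38) nor *Npy5r* (-0.37) passed an unadjusted p of 0.05, and without PNO replicate 3 *Sstr3* (-0.37) did not. Over all 26 alternative settings *Sstr3* and *Npy5r* each missed that limit in 7. *Npy5r* and *Kcnc1* were the 2 list genes with an unadjusted p under 0.05 between IUO and SAL pups, both lower in IUO pups, with *Npy5r* at -0.43 ± 0.17 (edgeR, adjusted p = 0.602).

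**Figure D4:**
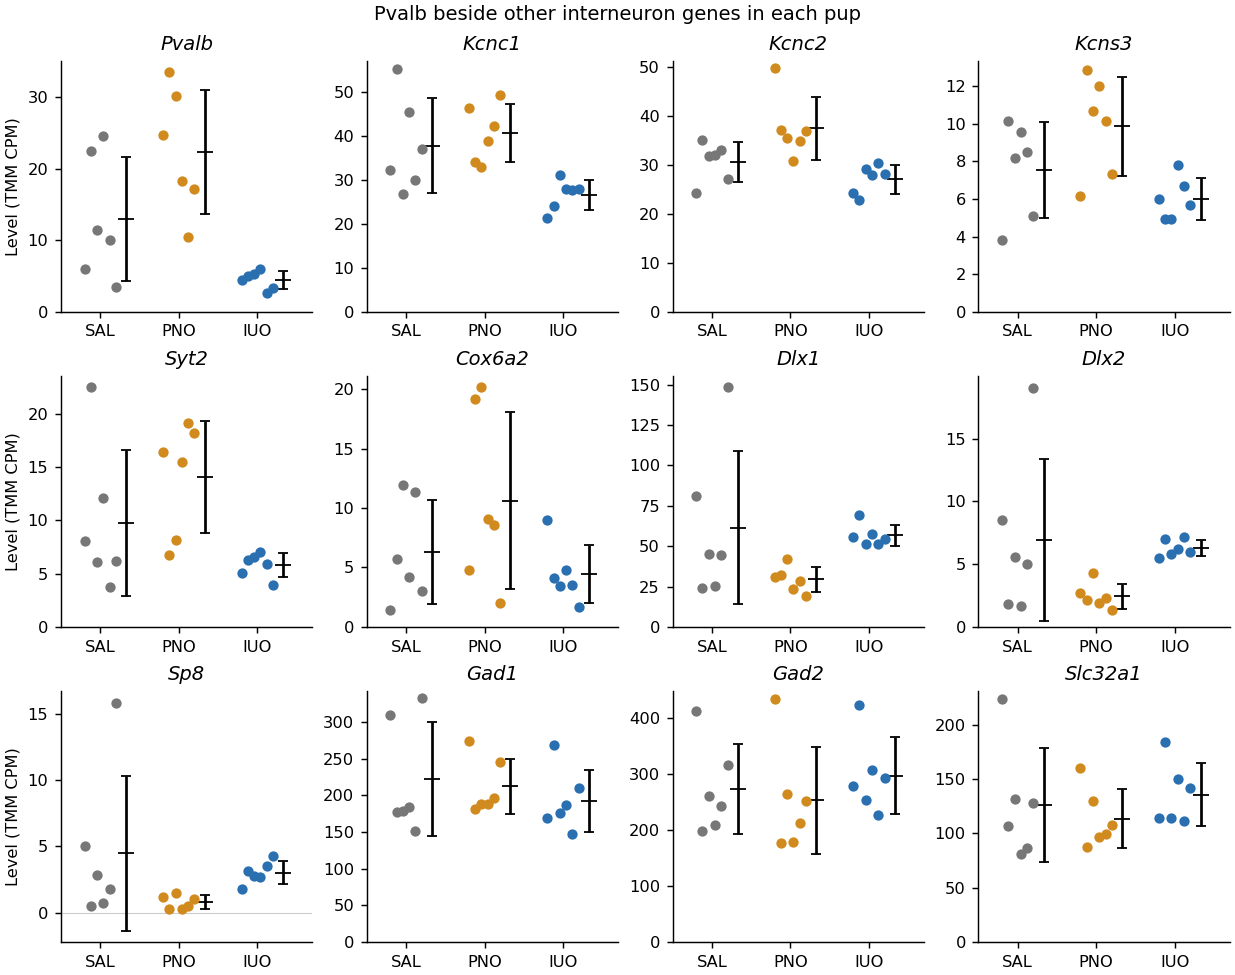
Level in TMM-scaled CPM of *Pvalb* and 11 other interneuron genes, with 1 point per pup in replicate order and the mean ± SD of 6 pups as a bar. IUO pups lie below PNO pups for *Kcnc1* and *Kcnc2* and above them for *Dlx1*, *Dlx2* and *Sp8*, while *Gad1*, *Gad2* and *Slc32a1* overlap between groups.

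Markers of another cell type were read beside *Pvalb*. The 7 genes of mature oligodendrocytes, the myelin-forming cells, summed to 1673 over a median of 6166 to 9123 CPM in SAL pups, 2837 over 10122 to 14556 CPM in PNO pups and 2138 over 2925 to 5479 CPM in IUO pups, and all 7 were detected in each group. Groups overlapped, with PNO pups the highest and IUO pups the lowest by the median, as for *Pvalb*. Within groups, the correlation of *Pvalb* with this sum on the log2 scale was 0.72 over the 18 pups, and that with the olfactory bulb sum was -0.72. For *Sst* the same values were 0.66 and -0.68, and for *Reln* -0.73 and 0.74. With SAL replicate 6 left out the values for the oligodendrocyte sum were 0.58 for *Pvalb*, 0.42 for *Sst* and -0.54 for *Reln*. Those for the olfactory bulb sum were -0.52, -0.12 and 0.17 in the same order, so that for *Sst* and *Reln* they rested mainly on that pup.

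The part of myelin-rich tissue in the group difference of *Pvalb* was not tested. The summed microglia, astrocyte and endothelial markers overlapped among the 3 groups. Of the 5 microglia markers, however, *Tmem119*, a membrane protein of resident microglia, ranged from 2.90 over a median of 5.53 to 6.00 CPM in IUO pups, from 10.4 over 12.8 to 14.1 CPM in PNO pups and from 6.70 over 10.7 to 22.5 CPM in SAL pups. All IUO pups thus lay below all other pups for this gene, while *Csf1r*, *Cx3cr1*, *P2ry12* and *C1qa* overlapped between groups. The part of microglia in the *Pvalb* values was not tested either.

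**Figure D5:**
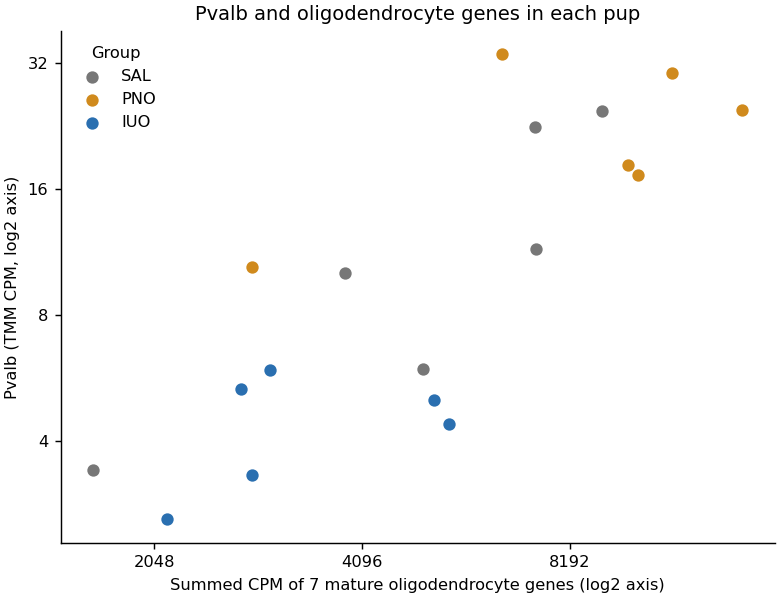
*Pvalb* in TMM-scaled CPM against the summed CPM of 7 mature oligodendrocyte genes, both on log2 axes, with 1 point per pup colored by group. The 6 IUO pups lie at the bottom left and 5 of the 6 PNO pups at the top right, while PNO replicate 5, with a sum of 2837 CPM, lies above the IUO pups. SAL replicate 1, at 5028 CPM and 5.95 CPM of *Pvalb*, lies close to the IUO pups, and SAL replicate 6, with the lowest sum of 1673 CPM, falls inside their range of *Pvalb*.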

How the data were processed

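For each pup the authors deposited 1 table of expected counts per gene, in which reads matching several genes are divided by estimation, beside TPM, which the authors scaled to gene length and to a fixed total per pup, and FPKM, which the authors scaled to gene length and depth. The aligner, the quantification program, the annotation and the build are not given in the sources used here. FPKM were not used. Groups and replicate numbers came from the sample titles. Replicates of a group differed by more than sampling noise (chi-square per degree of freedom of 11.7 to 197 over 45 pairs).

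After rounding, expected counts entered edgeR (version 4.0.16, R 4.3.3) with TMM size factors and filterByExpr on the groups. The quasi-likelihood test (glmQLFit, then glmQLFTest) was two-sided, in a single model of all 18 pups with 15 residual degrees of freedom, and p-values were adjusted by Benjamini-Hochberg over 15703 genes. Genes counted as called had an adjusted p under 0.05 and differed 1.5-fold or more. Log2 CPM used a prior count of 2. The fit was tested on simulated data. Levels between genes used the deposited TPM. Alternatives were RLE or no size factors, other filters on low counts, limma-voom with sample quality weights (limma version 3.58.1), DESeq2 (1.42.0), only the 12 pups compared, a replicate block, and each pup left out in turn. For the pair correlations they were both size factor choices, a prior count of 0.5, log2(TPM + 0.5) and each pup left out. Correlations with marker sums were also computed without SAL replicate 6 or IUO replicate 6, chosen after seeing the data. Other steps used Python 3.11.15 with pandas 2.3.3, numpy 2.4.6 and matplotlib 3.10.9.

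The markers and the gene lists were chosen with earlier results of these data known. The genes named are the 9 markers, the 3 genes most correlated with each, the list genes with an unadjusted p under 0.05 in a comparison, *Gad1*, *Gad2* and *Slc32a1*. *Adarb2*, called by limma-voom alone, and the markers of other cell types and regions named in the text were added after their values were seen. One gene of the lists is not reported here and was left out of every count of them. Further genes called between IUO and PNO pups are not described. Promoter sequences are from RefSeq (GRCr8), matched by symbol. Of 11 marker lists for other cell types and regions, the thalamus, hypothalamus, choroid plexus and Cajal-Retzius lists overlapped among the 3 groups.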

Additional observations from a re-analysis of the deposited data

Results flagged for a closer look

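Within each group of 6 pups, the gap of the highest or lowest pup to its neighbor was divided by the range of the group in log2 CPM, and a share above Dixon's critical value for groups of this size marks a pup far from the others. Over the 84 groups of 28 named genes, 7 passed, and chance alone gives about 1 in 20. Among the markers, *Reln* in SAL replicate 6 (0.703) stood at 373 CPM above a neighbor at 115 CPM, and *Calb2* in IUO replicate 6 (0.744) at 280 CPM above one at 120 CPM. *Npy* in SAL replicate 1 (0.674) was listed at 0, with the next pup at 0.636 CPM.

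Among the other interneuron genes, *Vipr2* stood out in SAL replicate 6 (0.706), at 9.97 against 4.83 CPM, and in IUO replicate 6 (0.751), at 4.91 against 3.64 CPM. *Npy5r* was high in SAL replicate 2 (0.72), at 4.68 against 3.37 CPM, and *Lrp8* was low in IUO replicate 6 (0.665), at 135 against 158 CPM. SAL replicate 6 is the pup with the high olfactory bulb markers.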

How the results depend on the processing

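The number of genes called between IUO and PNO pups depended on the processing: 7 with edgeR, 13 with no size factors, 50 with only the 12 pups compared, 172 with DESeq2 and 703 with limma-voom. With each pup left out it ran from 0 to 58. It was 0 without PNO replicate 4 or 6 or IUO replicate 3, 1 or 2 without PNO replicate 2 or IUO replicate 2, 4, 5 or 6, from 11 to 26 without SAL replicate 1, 2, 3, 4 or 6, 12 without IUO replicate 1, 13 without PNO replicate 3, and 58 without PNO replicate 5. Between IUO and SAL pups, where edgeR called 0 genes, DESeq2 called 22, limma-voom 17 and the fits with a pup left out 0 to 1. Between PNO and SAL pups DESeq2 called 1 and no other setting any. The cause was not tested.

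Of the 59 list genes, the number with an unadjusted p under 0.05 was 27 by limma-voom (18 higher, 9 lower) in place of 15 (5 higher, 10 lower) between IUO and PNO pups, 8 (6 higher, 2 lower) in place of 2 (both lower) between IUO and SAL pups and 0 in place of 5 between PNO and SAL pups. With a pup left out it was 11 to 19, 2 to 8 (4 to 8 without SAL replicate 1, 3, 5 or 6) and 4 to 8 (8 without SAL replicate 2 or PNO replicate 1) in the same order. Under limma-voom *Dlx1*, *Dlx2* and *Sp8* lost their difference between PNO and SAL pups at that limit. The share of all genes past that limit under limma-voom, with a replicate block or with a pup left out is not given here. The counts of list genes in those fits therefore have no background to be read against.

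The deviations of same-numbered pups had an r above 0.1 in 4 of 6 pairs between PNO and SAL pups (mean 0.232), 3 of 6 between IUO and PNO pups (mean 0.063) and 1 of 6 between IUO and SAL pups (mean -0.027). Of 12 pups, 6, 4 and 1 were most like their own number in the other group. The labels tie the numbers to nothing and not all pairs passed 0.1, so the numbers were not taken as pairs. With a replicate block, 5 genes were called between IUO and PNO pups, the log2 fold change of *Pvalb* there was -2.34, and 5 list genes, 3 of them higher, had an unadjusted p under 0.05 between IUO and SAL pups. Between IUO and PNO pups *Nr2f2*, *Kit*, *Crh* and *Cox6a2* had an unadjusted p of 0.0767, 0.0518, 0.0752 and 0.0714 with the block (edgeR, adjusted p = 0.353, 0.306, 0.35 and 0.343). Of the 36 marker pairs, 4 passed in the main analysis and 2 with log2(TPM + 0.5), where both pairs of *Pvalb* failed. With a pup left out 1 to 7 passed: 1 without SAL replicate 6, 2 without SAL replicate 4 or PNO replicate 2 or 5, and 7 without IUO replicate 2.

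Between IUO and PNO pups the log2 fold changes of *Sst*, *Vip*, *Cck*, *Reln* and *Lhx6* kept their sign under every alternative, whereas those of *Npy*, *Calb1* and *Calb2* changed sign at least once there. Low counts limit *Lhx6*, with 19 to 123 in a pup. For *Npy*, listed at 0 in 7 pups and with a number that was not whole in the other 11, whether the estimate itself failed could not be settled.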

Other observations

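The IUO pups were the most alike for most of the markers. The coefficient of variation of CPM in IUO, PNO and SAL pups was 28.4%, 38.8% and 66.8% for *Pvalb*, 11.3%, 23.2% and 33.2% for *Sst*, and 16.9%, 35.0% and 32.2% for *Vip* (n = 6 each). It was lowest in IUO pups for 7 of the 8 markers above 0 in every pup, with *Calb2* the exception at 53.6% in IUO pups against 37.2% in SAL pups. Over all genes tested, IUO pups had the lowest value for 60.9% of genes, and without SAL replicate 6 for 47.2%, against 6 of the 8 markers. The difference in spread was not tested.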
